A study of Mus musculus with 6 samples.

Results

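Satellite glia are the flat glial cells that wrap each neuronal cell body in a sensory ganglion, and 10 genes commonly used to mark them were followed here across 6 bulk RNA-seq libraries of mouse dorsal root ganglia (DRG). The genes were chosen by name, with earlier results of these data known (Fabp7, Ednrb, Kcnj10, Kcnj16, Glul, Apoe, Cdh19, Slc1a3, Gja1 and Sox10). All 10 were found among the 48401 symbols in the files, and all 10 were among the 19141 genes tested, which had a mean of at least 1 TPM (a level that takes the length of the gene into account). The ganglia were L4/5 DRGs of male C57BL/6J mice aged 8 weeks that had received small interfering RNA intrathecally. The 3 control libraries came from mice given siNC and the other 3 from mice given siCLAP, which is directed at the long noncoding RNA named CLAP in the study's title. Libraries held 21386768 to 46317735 expected counts. The labels do not say how many mice gave each library, nor that libraries are separate animals, so p-values measure the spread between these libraries only. The time from injection to collection is not given in the sources used here.

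Satellite glia take up potassium and neurotransmitters released around the neuron, couple to each other through gap junctions and supply lipids to the cell they enclose. They arise from the neural crest under the transcription factor SOX10, a lineage they share with Schwann cells, so several of their markers are not theirs alone. Apoe is also made by macrophages, Sox10 is expressed by Schwann cells, Gja1 by fibroblasts and meningeal cells, and Ednrb by endothelium. In bulk RNA, a change in the number of cells of a type and a change in RNA per cell cannot be told apart.

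Of the 10 markers, Ednrb rose 1.37-fold in siCLAP and the other 9 did not pass the test across all genes (edgeR's quasi-likelihood test, Benjamini-Hochberg adjusted p under 0.05). Fabp7 came next, 1.30-fold higher with an adjusted p of 0.0560. Of all tested genes 0.293% passed, and 0.0731% passed as higher. The markers were chosen with earlier results of these data known, a call of Ednrb among them. The shares of all genes given here are therefore a description and do not test the set. At an unadjusted p under 0.05 there were 4 markers higher and 1 lower, where 17.0% of all genes met that limit, 8.22% as higher and 8.75% as lower. The groups did not overlap for 4 markers, of which 3 were higher and 1 lower, against 21.5% of all genes, 10.9% as higher and 10.7% as lower. Of the 10 estimates 8 were above 0, as were 49.5% of all, and the median log2 fold change was 0.142, against −0.00178 over all genes tested.

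Sequences before the RefSeq transcription starts of Ednrb and Fabp7 are shown because these 2 markers had the smallest p, though Fabp7 did not pass. Both are given on GRCm38.p6 and leave out bases that GENCODE M21 places in an exon. The Ednrb stretch is chr14:103843702-103843951 on the minus strand, and the Fabp7 stretch is chr10:57784673-57784880 on the plus strand. For Ednrb the annotations differ: the stretch precedes 2 of the gene's 3 GENCODE transcripts but lies in the first intron of the longest, which starts farther upstream, so it is inside the gene as GENCODE draws it. The Fabp7 stretch precedes both GENCODE transcripts of that gene. Capitals mark CCAAT, the CCAAT box, read on either strand.
Ednrb: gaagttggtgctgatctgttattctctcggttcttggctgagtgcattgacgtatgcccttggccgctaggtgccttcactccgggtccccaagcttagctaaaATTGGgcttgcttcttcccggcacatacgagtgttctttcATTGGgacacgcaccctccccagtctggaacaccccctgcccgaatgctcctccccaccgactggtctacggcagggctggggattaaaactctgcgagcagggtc
Fabp7: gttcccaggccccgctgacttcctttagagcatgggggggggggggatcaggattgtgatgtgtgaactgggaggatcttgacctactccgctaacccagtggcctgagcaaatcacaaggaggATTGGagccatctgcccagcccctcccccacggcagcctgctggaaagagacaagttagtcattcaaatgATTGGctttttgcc
Each stretch held 2 CCAAT matches. In whole windows of 300 bases, 8 of the 10 markers had an entry, and 6 of these held the motif (Fabp7, Ednrb, Kcnj10, Kcnj16, Glul and Slc1a3), in 6 of their 13 windows. CCAAT occurred in 37.4% of all 32851 windows. ACAAAG and ACAATG, cores bound by SOX proteins and searched on both strands, were in neither printed stretch. ACAAAG was in windows of Kcnj10 and Apoe and in 18.7% of all windows, and ACAATG in a window of Apoe and in 12.6% of all. Cdh19 and Sox10 had no entry.

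Levels per gene length ran from 3.74 TPM for Kcnj16 to 3588 TPM for Apoe. Apoe, which encodes the lipid carrier apolipoprotein E, stood at 3588 ± 267 TPM (mean ± SD, n = 6 libraries), rank 12 among all tested genes, and supplied 80.5% to 82.7% of the summed TPM of the markers in a library. Glul, the glutamine synthetase that turns glutamate into glutamine, followed at 304 ± 13.4 TPM, and Fabp7, a brain-type fatty acid binding protein, at 211 ± 33.6 TPM. These 3 levels kept their order in all 6 libraries and their ranges did not overlap. Sox10, Ednrb and Cdh19 stood close together at 77.2 ± 6.63, 68.4 ± 12.4 and 63.4 ± 5.95 TPM. Their ranges overlapped, with Sox10 above Ednrb in 4 of 6 libraries and Ednrb above Cdh19 in 3 of 6. Below them came Kcnj10 at 42.8 ± 2.72, Gja1 at 16.7 ± 1.95, Slc1a3 at 6.14 ± 0.698 and Kcnj16 at 3.74 ± 0.527 TPM, each above the next in every library. Kcnj16 lay at percentile 22.3 of the tested genes, on 112 to 237.5 expected counts per library. Its value and that of Slc1a3, on 261.5 to 478 counts, rest on the fewest counts of the 10. Their fold changes also have the largest standard errors.

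**Figure D1:**
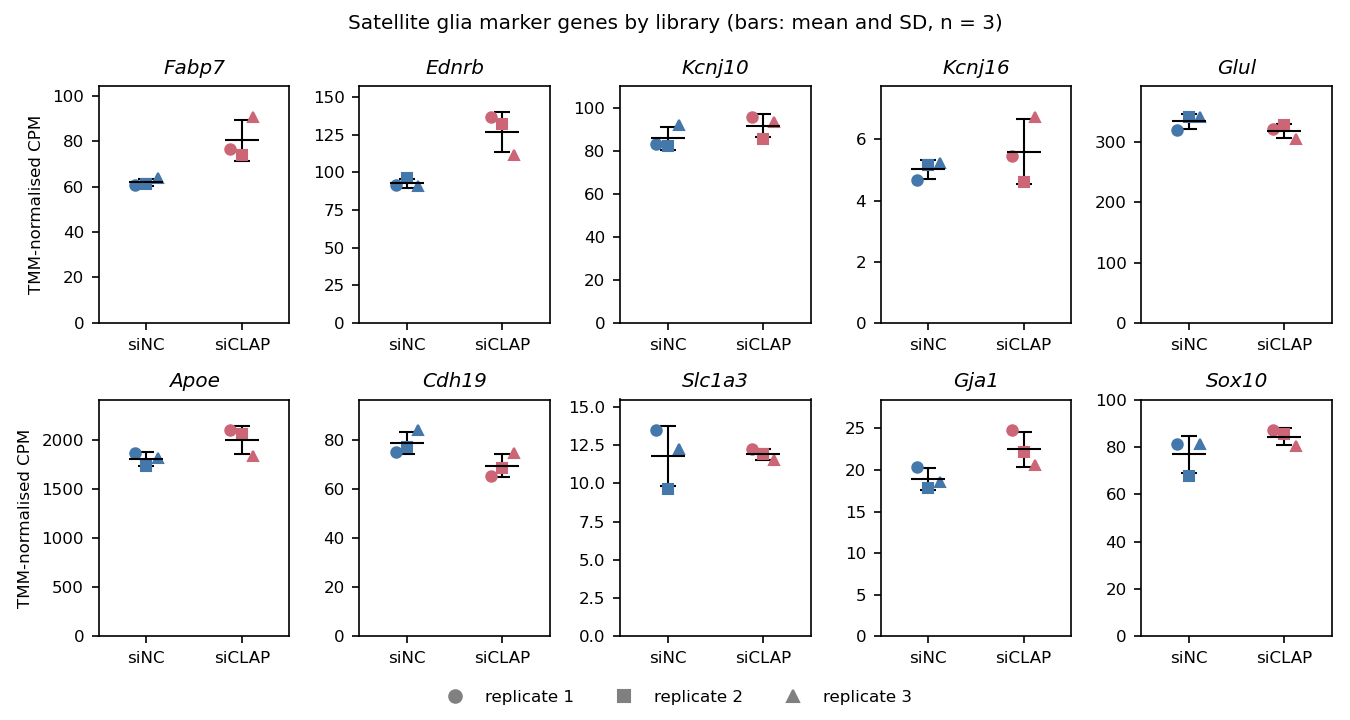
Normalised CPM of each marker gene (vertical axes, from 0) in the 3 siNC and 3 siCLAP libraries (symbols by replicate number; bars, mean and SD). The siCLAP points lie above all siNC points for Ednrb, Fabp7 and Gja1, lie below them for Cdh19, and overlap them for the other 6 genes.

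Ednrb encodes the endothelin B receptor, a G protein-coupled receptor for the endothelin peptides. Values per library are given as CPM, counts scaled to library size with TMM factors, for replicates 1, 2 and 3 in that order. Ednrb stood at 91.5, 96.3 and 90.7 CPM among controls and 137, 132 and 112 CPM with siCLAP. The gene lies at chr14:103814625-103844402 on the minus strand (mm10, GENCODE M21) and shares no exon with another gene. Every siCLAP library was above every siNC library, with siCLAP-3 the lowest of its group. The means were 92.9 ± 3.04 and 127 ± 13.4 CPM (SD, n = 3 per group), and the log2 fold change was 0.45 ± 0.07 (SE; edgeR adjusted p = 0.0317), with an interval of 2 SE from 0.31 to 0.59. It ranked 28 by p among the 19141 genes. The estimate stayed between 0.39 and 0.54 in all 19 alternatives, but the call ended in 8 of them, among them leaving out siNC-1, siNC-3, siCLAP-1 or siCLAP-2 (adjusted p = 0.0803, 0.159, 0.192 and 0.0651), and adjusted p ran from 3.33e-07 with DESeq2 to 0.394.

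For Fabp7 the controls gave 60.8, 61.2 and 63.7 CPM, against 76.7, 73.8 and 90.7 CPM with siCLAP. The gene lies at chr10:57784881-57788450 on the plus strand. The groups did not overlap, and here siCLAP-3 was the highest of its group where for Ednrb it was the lowest. The log2 fold change was 0.38 ± 0.07 (edgeR adjusted p = 0.0560), between 0.29 and 0.45 over the alternatives. Fabp7 passed in 7 of 19 alternatives, among them DESeq2 (adjusted p = 0.000151), a filter at a mean of 5 TPM (0.0487), and leaving out siCLAP-2 (0.0415) or siCLAP-3 (0.0331), with adjusted p from 0.000147 to 0.737 over all of them. Under DESeq2, which called 4.38% of the genes it adjusted and 1.71% as higher, the markers that passed were Ednrb and Fabp7. Limma on log2(TPM + 0.5) passed 0 of all genes and 0 markers, with 15.8% of all genes and 4 markers at an unadjusted p under 0.05.

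**Figure D2:**
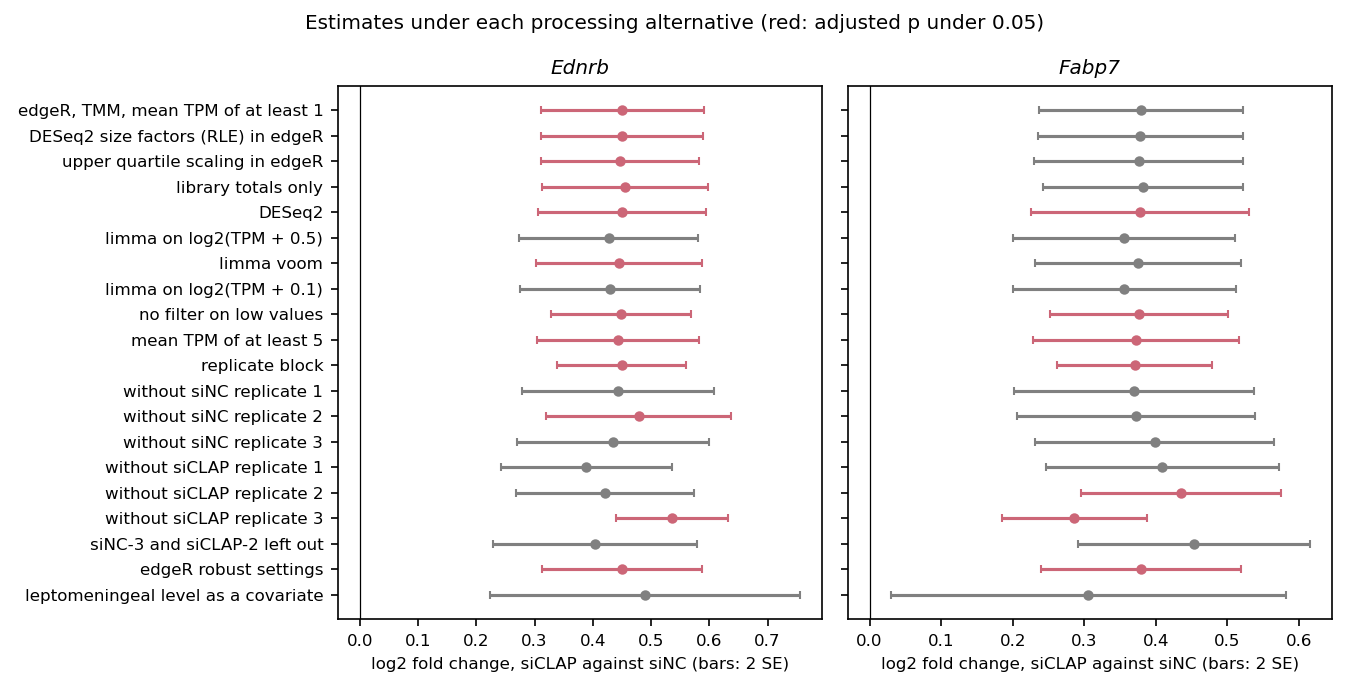
Log2 fold change of Ednrb and Fabp7 (horizontal axes; bars, 2 SE) under the settings used and 19 alternatives (rows), in red where the adjusted p is under 0.05. All estimates are above 0, while the call depends on the setting.

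The potassium channel genes did not pass. Kcnj10 and Kcnj16 encode inward rectifier subunits that can assemble together, and through such channels satellite glia clear potassium. Kcnj10 was at 83.1, 82.0 and 92.0 CPM in siNC and 95.7, 85.6 and 93.5 CPM in siCLAP (log2 fold change 0.10 ± 0.06, edgeR adjusted p = 0.417). Kcnj16 was at 4.67, 5.17 and 5.23 CPM against 5.46, 4.61 and 6.74 CPM (0.16 ± 0.14, adjusted p = 0.592). The groups overlapped for both genes, and the Kcnj16 estimate was 0.01 without siCLAP-3 and 0.27 without siCLAP-2. Intervals of 2 SE ran from −0.02 to 0.22 for Kcnj10 and from −0.12 to 0.44 for Kcnj16. Of 12 other inward rectifier genes 8 were tested, none of which passed. An unadjusted p under 0.05 was found for 1 of them, and for 17.0% of all genes. The smallest p were those of Kcnj14 at 0.60 ± 0.22 (adjusted p = 0.206), Kcnj8 at −0.43 ± 0.24 and Kcnj12 at −0.08 ± 0.05.

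Genes for glutamate handling also stayed below the threshold. Glul, at chr1:153899944-153909723 on the plus strand, shares 116 exonic bases with Teddm2 on the other strand and holds Mir8114 in an exon, and was the marker with such overlaps in GENCODE M21. It was at 320, 341 and 341 CPM in siNC and 321, 328 and 305 CPM in siCLAP, which overlap (log2 fold change −0.07 ± 0.05, edgeR adjusted p = 0.471). Slc1a3, the glutamate transporter GLAST, was at 13.5, 9.63 and 12.2 CPM against 12.2, 11.9 and 11.5 CPM (0.02 ± 0.12, adjusted p = 0.938). Its siCLAP values lay within the siNC range, and the sign turned without siNC-2 (−0.12) and without siCLAP-1 (−0.00423). Of 12 other glutamate and glutamine genes 10 were tested and none passed. At an unadjusted p under 0.05, 1 was higher and 2 lower, against 8.22% and 8.75% of all genes. Among them were Slc1a1, a neuronal glutamate transporter, at 0.36 ± 0.16 (edgeR adjusted p = 0.272) and the neutral amino acid transporter gene Slc1a5 at −0.19 ± 0.08 (0.283).

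For the gap junction gene Gja1 the siNC libraries stood at 20.4, 17.9 and 18.6 CPM and the siCLAP libraries at 24.8, 22.1 and 20.6 CPM. The groups did not overlap, though siCLAP-3 exceeded siNC-1 by little, and the gene did not pass (0.25 ± 0.08, edgeR adjusted p = 0.168). Among 19 other connexin and pannexin genes 9 were tested and none passed. Gjd2, a neuronal connexin gene, was at 0.51 ± 0.19, while Gjb6 and Gjb2, which encode connexins made by meningeal cells, were at −0.91 ± 0.36 and −0.78 ± 0.34 (adjusted p = 0.209, 0.245 and 0.283). In Gjb6 and Gjb2 the values were higher in siNC-1 and siNC-3 than in siNC-2, at 2.79, 0.956 and 2.80 CPM for Gjb6 and 2.31, 1.41 and 4.20 CPM for Gjb2. Gjb6 passed without siNC-2 (−1.32, adjusted p = 0.0234). Both signs turned when the level of leptomeningeal markers was a covariate (0.49 and 0.54). That level was lower in every siCLAP library than in every siNC library, so this fit separates it poorly from the group. A cause was not tested.

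Apoe was at 1872, 1735 and 1814 CPM in siNC and at 2101, 2065 and 1837 CPM in siCLAP (0.15 ± 0.05, edgeR adjusted p = 0.213). The values of siCLAP-1 and siCLAP-2 were above the siNC range and that of siCLAP-3 was within it. Of 14 lipid transport partners 13 were tested and none passed. At an unadjusted p under 0.05, 2 were higher and 3 lower, against 8.22% and 8.75% of all genes. Fabp3, another fatty acid binding protein gene, was at 0.28 ± 0.07, Lrp1, an apolipoprotein E receptor, at −0.25 ± 0.06 and Lrp8, another receptor of that family, at −0.19 ± 0.06 (adjusted p = 0.0838, 0.0951 and 0.171). DESeq2, which called 2.68% of genes as lower, called Lrp1 lower (adjusted p = 0.00873) and Fabp3 higher (0.0491). Lrp1 also passed in edgeR without siNC-2 (−0.32, adjusted p = 0.0313).

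The lineage genes stood on both sides of 0. Sox10 was at 81.5, 67.8 and 81.3 CPM in siNC and 87.0, 85.6 and 80.4 CPM in siCLAP (0.14 ± 0.07, edgeR adjusted p = 0.347), overlapping because of siCLAP-3. The lowest Sox10 value was that of siNC-2, and without that library the estimate was 0.05. Cdh19, a cadherin gene of neural crest derived glia, was at 75.2, 77.1 and 83.9 CPM against 65.2, 68.7 and 74.6 CPM (−0.18 ± 0.06, adjusted p = 0.184). It was the marker with every siCLAP library below every siNC library, the closest being siCLAP-3 and siNC-1. Of 15 other lineage regulators 13 were tested and none passed. Sox2, a transcription factor of glial precursors, was at 11.0, 12.4 and 12.2 CPM in siNC and 16.2, 17.9 and 14.0 CPM in siCLAP (0.44 ± 0.10, adjusted p = 0.0800; DESeq2 adjusted p = 0.0112), and it passed in edgeR without siCLAP-3 (0.52, adjusted p = 0.0331). Tfap2a and Pou3f1 were at 0.28 ± 0.15 and 0.26 ± 0.14. None of 5 tested cadherins among 6 listed passed, with Cdh1 at −0.15 ± 0.05, Cdh6 at 0.11 ± 0.07 and Cdh20 at 0.11 ± 0.15.

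**Figure D3:**
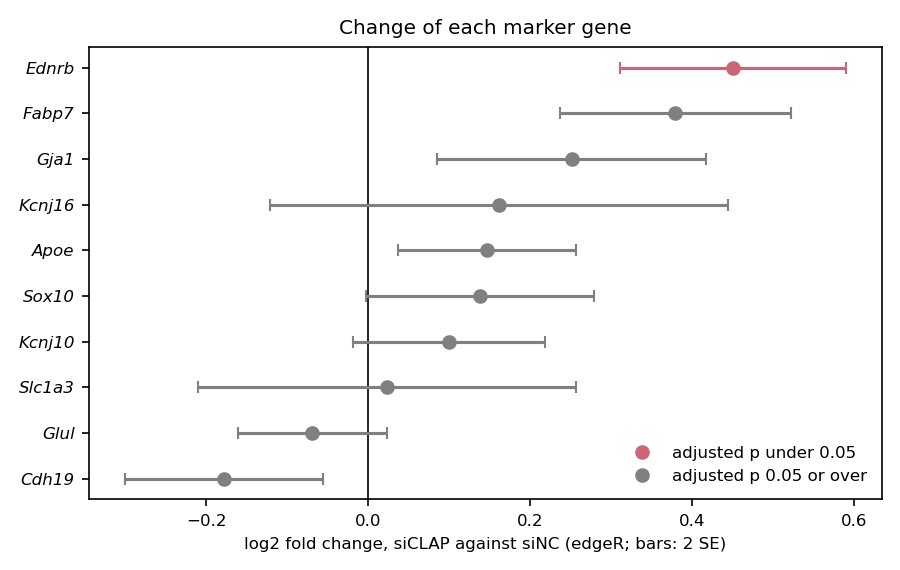
Log2 fold change of each marker (horizontal axis; points, edgeR estimates; bars, 2 SE), in red where the adjusted p is under 0.05. Estimates run from −0.18 for Cdh19 to 0.45 for Ednrb.

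Transcripts of the ligands of the endothelin B receptor were at low levels in the ganglion. Edn1, Edn2 and Edn3, the endothelin genes, had means of 0.828, 0.833 and 0.506 TPM over the 6 libraries and were not tested. They are named here after their values were seen. The 4 tested genes of the endothelin system did not pass, with 0 at an unadjusted p under 0.05, a limit that 17.0% of all genes met. Ecel1, which resembles the endothelin converting enzymes, was at 0.59 ± 0.29, with siNC-2 low at 1.70 CPM against 3.73 to 5.26 CPM in the other libraries. Ednra, the endothelin A receptor, was at 0.12 ± 0.10 and the converting enzyme Ece2 at −0.05 ± 0.05.

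A further 17 genes reported in satellite glia, several of them shared with Schwann cells, were all tested and none passed. At an unadjusted p under 0.05, 4 were higher and 2 lower, against 8.22% and 8.75% of all genes. The median log2 fold change was 0.0485. Among those with the smallest p were Fasn (−0.20 ± 0.05, edgeR adjusted p = 0.109), the fatty acid synthase, and S100b (0.12 ± 0.04, 0.168), a calcium-binding protein of glia. The siCLAP and siNC values did not overlap for either gene. DESeq2 called 2 of the 17 lower, among them Fasn (adjusted p = 0.0164).

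In the list of glial reactivity and nerve injury genes, 2 of 14 tested members rose and 12 did not pass. Of all genes 0.0731% passed as higher, but this list too was chosen with earlier results of these data known. Serpina3n, a protease inhibitor of reactive glia and injured neurons, was at 279, 265 and 282 CPM in siNC and 408, 362 and 356 CPM in siCLAP (0.45 ± 0.06, edgeR adjusted p = 0.0215). Atf3, a transcription factor of injured sensory neurons, was at 10.2, 7.02 and 9.52 CPM against 20.6, 17.2 and 13.8 CPM (0.97 ± 0.16, adjusted p = 0.0409). Like Ednrb, Atf3 was lowest of its group in siCLAP-3, and both genes were highest in siCLAP-1. These calls ended in 5 and 8 of 19 alternatives, with adjusted p from 5.34e-11 to 0.158 for Serpina3n and from 5.39e-07 to 0.222 for Atf3, the highest being that without siCLAP-1 for Atf3. Serpina3n lost its call without siNC-3 or siCLAP-1 (adjusted p = 0.104 and 0.111), and Atf3 without siNC-1, siNC-3, siCLAP-1 or siCLAP-2 (0.0544, 0.133, 0.222 and 0.0693). The intermediate filament gene Vim stood at 0.14 ± 0.07 (adjusted p = 0.325). Gfap, a gene of this list named after its values were seen, was low, at 1.29, 0.935 and 1.87 CPM in siNC. In siCLAP it was at 3.89, 1.26 and 0.748 CPM, which overlap (0.66 ± 0.49, edgeR adjusted p = 0.521). Over the 9 related lists 93 of 117 genes were tested, of which 2 rose and 0 fell, with 12 higher and 10 lower at an unadjusted p under 0.05.

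The markers did not vary as a block between libraries of the same group. After each group's mean was removed, 20 of 45 pairs of markers had a positive Pearson r over the 6 libraries (median −0.06), which describes libraries that share scaling and depth. The highest values were those of Slc1a3 with Sox10 (0.94) and Fabp7 with Kcnj16 (0.94), and the lowest that of Fabp7 with Ednrb (−0.92). Set against the mean log2 level of the other 9 markers of its library, Ednrb was at 0.449, 0.608 and 0.403 in siNC and 0.921, 0.938 and 0.635 in siCLAP. Cdh19 was at 0.136, 0.253 and 0.278 against −0.260, −0.107 and −0.010. The groups did not overlap on this ratio for Fabp7, Ednrb, Glul and Cdh19. A share of 4 in 10 is near the 36.7% of all genes whose ratio to the markers did not overlap.

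**Figure D4:**
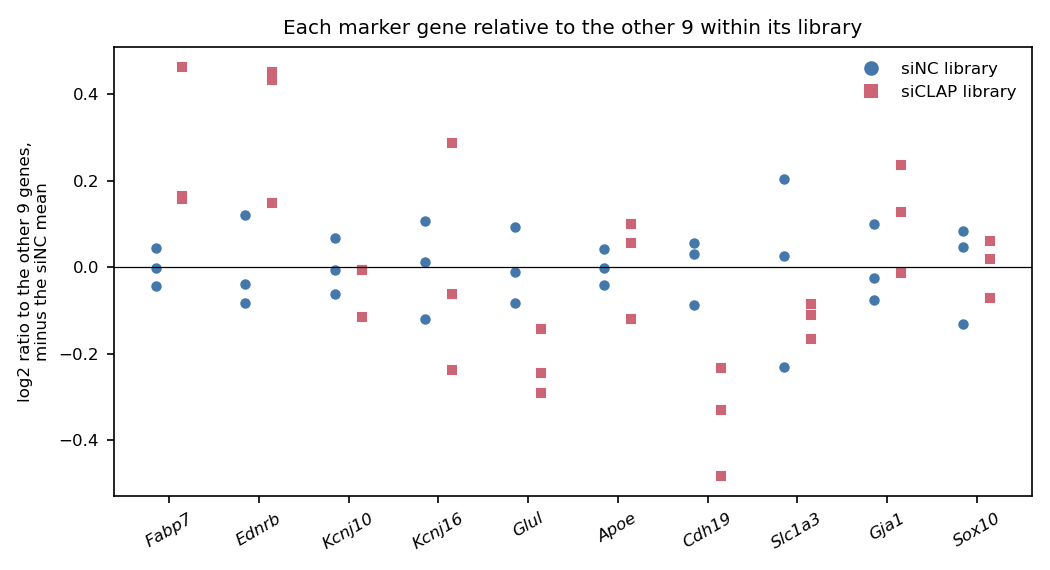
Log2 ratio of each marker to the mean of the other 9 in its library, minus the siNC mean (vertical axis), for siNC (circles) and siCLAP (squares) libraries. Among the markers whose groups do not overlap, Ednrb and Fabp7 lie above 0 in the siCLAP libraries, while Glul and Cdh19 lie below.

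Among 13806 other genes with a mean of at least 5 TPM, those whose CPM across the 6 libraries was most like Ednrb were AK202768, Atp5f1, Taf13, Cdc37l1 and Arxes2 (Pearson r 0.99 for each). None of these 5 passed, and their estimates ran from 0.05 for Cdc37l1 to 0.49 for AK202768. For the mean z-score of the 10 markers they were Rhof, Flrt3, Zfp36l2, Myl6b and Mrpl42 (r from 0.98 to 0.99), with estimates from 0.12 for Rhof to 0.29 for Flrt3. With 6 libraries and this many genes, such values are a description only.

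Markers of other cells were measured beside these results. The summed level of the 10 satellite glia markers, most of it Apoe, was 3988 to 4340 TPM in siNC and 4277 to 4742 TPM in siCLAP, which overlap. Without Apoe the sum was 746 to 789 TPM in siNC and 814 to 832 TPM in siCLAP, which do not overlap. This sum does not show a rise of every marker. The largest rises in its group means, siNC to siCLAP, were those of Fabp7 (185 to 237 TPM) and Ednrb (58.2 to 78.7). The largest falls were those of Glul (312 to 295) and Cdh19 (67.7 to 59.1). Of the leptomeningeal list 4 of 5 genes were tested and none passed in edgeR. All 4 were lower at an unadjusted p under 0.05, against 8.75% of all genes. The list summed to 24.8 to 105 TPM in siNC and 7.20 to 18.1 TPM in siCLAP. Its defining genes Slc47a1, Slc6a13 and Ptgds were at −1.78 ± 0.38, −1.10 ± 0.29 and −2.96 ± 0.56. DESeq2 called Ptgds lower (adjusted p = 0.00997). The level of that list was also used as a covariate, an alternative chosen after seeing the data. In that fit Ednrb stood at 0.49 ± 0.13 (edgeR adjusted p = 0.394). Sox10, Gja1, Apoe, Slc1a3 and Kcnj10 stood at 0.43, 0.46, 0.30, 0.43 and 0.22, each above its estimate without the covariate. Fabp7, Kcnj16 and Cdh19 stood below theirs, at 0.31, −0.00436 and −0.20, and Glul stayed at −0.07. No marker passed in that fit. In the myelinating Schwann cell list 1 of 9 genes fell in edgeR, Egr2 (−0.76 ± 0.13, adjusted p = 0.0389), a regulator of myelination. All 9 estimates were below 0, with a median of −0.23. At an unadjusted p under 0.05, 6 were lower, against 8.75% of all genes. DESeq2, which called 2.68% of genes as lower, called 4 of the 9 lower. These were Egr2, Mal (edgeR −0.23 ± 0.05, adjusted p = 0.0765), Fa2h (−0.36 ± 0.10, 0.101) and Ncmap (−0.34 ± 0.11, 0.168), the last 3 named after their values were seen. Egr2 lost its call without siNC-1, siNC-3, siCLAP-1 or siCLAP-2 (adjusted p from 0.0805 to 0.225). The myelinating Schwann cell list summed to 3412 to 4518 TPM in siNC and 3384 to 3698 TPM in siCLAP, and the myelin genes Mbp and Prx were at −0.14 ± 0.13 and −0.15 ± 0.14. The part of these cells in the marker results was otherwise not tested.

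Lists for other cells held no gene that passed in edgeR, while DESeq2 called 3 of their genes lower, L1cam, Ncam1 and Cdh5 (adjusted p = 0.00190, 0.0386 and 0.0325). Neuronal markers summed to 17868 to 18653 TPM in siNC and 18811 to 19459 TPM in siCLAP, which do not overlap. At an unadjusted p under 0.05, 4 of 8 were higher, against 8.22% of all genes. Rbfox3, Snap25 and Tubb3 were at −0.04 ± 0.04, 0.13 ± 0.05 and 0.09 ± 0.04. Macrophage markers summed to 24.3 to 40.6 TPM and 25.9 to 50.9 TPM, and C1qa, Csf1r and Cx3cr1 were at 0.20 ± 0.28, −0.03 ± 0.17 and 1.06 ± 0.38. Fibroblast markers summed to 297 to 439 TPM and 316 to 528 TPM, with Col1a1, Dcn and Pdgfra at −0.00147 ± 0.29, 0.09 ± 0.16 and −0.20 ± 0.19. Lum, a proteoglycan gene of that list named after its values were seen, was at 22.8, 18.0 and 21.9 CPM in siNC and 34.4, 40.2 and 24.9 CPM in siCLAP, which do not overlap (0.67 ± 0.15, edgeR adjusted p = 0.0795). Endothelial markers summed to 59.0 to 69.4 TPM and 62.4 to 63.7 TPM, where Pecam1, Cdh5 and Cldn5 stood at −0.04 ± 0.10, −0.40 ± 0.12 and 0.29 ± 0.09. At an unadjusted p under 0.05, 1 of these markers was higher and 1 lower, against 8.22% and 8.75% of all genes. Mural cell markers summed to 130 to 137 TPM and 110 to 135 TPM, with Rgs5, Pdgfrb and Acta2 at −0.11 ± 0.07, −0.06 ± 0.08 and −0.13 ± 0.12. Non-myelinating Schwann cell markers summed to 1802 to 2225 TPM and 2061 to 2176 TPM, and Scn7a, Ngfr and L1cam were at −0.03 ± 0.04, −0.07 ± 0.08 and −0.24 ± 0.05. Central glia markers summed to 12.2 to 12.6 TPM and 12.2 to 16.6 TPM, Aqp4 being at 0.23 ± 0.13. The oligodendrocyte genes Mog and Opalin had means of 0.310 and 0.0125 TPM and were not tested.

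**Figure D5:**
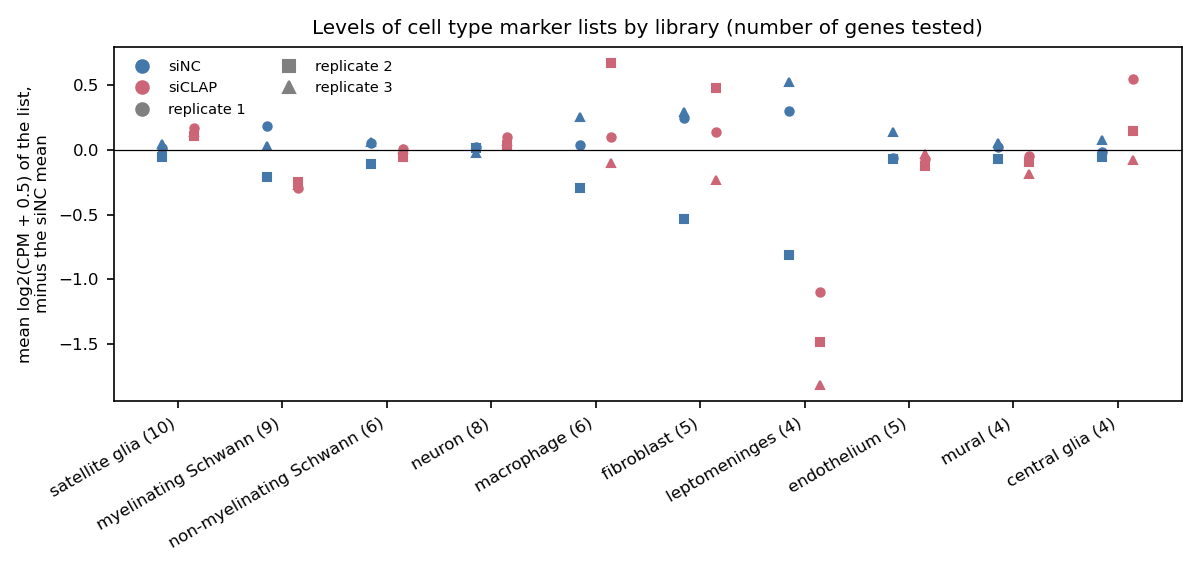
Mean log2(CPM + 0.5) of each cell type marker list minus its siNC mean (vertical axis), by library (colour, group; symbol, replicate number). Satellite glia markers vary little beside leptomeningeal markers, which are lower in the 3 siCLAP libraries and in siNC-2 than in siNC-1 and siNC-3. The satellite glia means, before subtraction, are 6.05 to 6.15 in siNC and 6.21 to 6.27 in siCLAP, which do not overlap.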

How the data were processed

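The deposited files give, for each library, a TPM value and an expected count per gene symbol. Per the submitters' processing notes, HISAT2 2.1.0, featureCounts 1.6.2 and FastQC 0.11.8 were used with mm10. The sources used here name no annotation, strand setting or rule for multiply mapped reads, and the labels' NEBNext Ultra kit does not mark strand. Between 64.4% and 68.3% of the deposited expected counts of a library were whole within 1e-06, so gene copies may share reads. This share includes genes with a count of 0, since 26004 to 27505 of the 48401 genes were above 0 in a library.

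Expected counts were rounded and tested with edgeR 4.0.16 (R 4.3.3; quasi-likelihood test, TMM, no covariate, mean TPM of at least 1). Standard errors came from the fold change and F. Alternatives used DESeq2 1.42.0 and limma 3.58.1. Exact permutation of 3 against 3 libraries cannot go below 0.1. On counts simulated for 19141 genes, 46%, 74%, 96% and 100% of genes changed 1.25, 1.5, 2 and 3-fold were recovered. The changed genes were drawn from those with a mean above 2 CPM, without the markers, so recovery at lower levels was not measured. Of 177 genes called there, 19 were among the 18941 unchanged genes. Counts were drawn independently for each gene, so shifts shared by many genes of a library were not simulated. Pairs of libraries within a group differed by more than counting noise (mean chi-square per gene 4.15 to 9.60), so none was counted as a repeat.

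The markers and lists were chosen with earlier results of these data known. All 10 markers are named, along with list genes that passed or otherwise the 3 with the smallest p, the first 3 of each cell type list, and the 5 genes most like the markers. Some genes that this rule names are not reported here. Mog, Opalin, Aqp4 and the genes of the endothelin peptides were named after their values were seen. Promoter windows are RefSeq's (GRCm38.p6).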

Additional observations from a re-analysis of the deposited data

How the results depend on the processing

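The count of changed genes, 56 here, was 611 with DESeq2, 0 with limma on log2(TPM + 0.5) or log2(TPM + 0.1) (3028 and 3017 at an unadjusted p under 0.05), 835 with no filter, 118 with a mean of at least 5 TPM, 13 without siNC-3 and siCLAP-2, and 133 with robust settings and 12 with the leptomeningeal covariate, both chosen after seeing the data. Leaving out single libraries gave 0 (without siCLAP-1; 1960 unadjusted) to 340 (without siCLAP-3), with 4 without siNC-3 and 157 without siNC-2. The markers that passed, 1 here, numbered 2 with DESeq2, no filter, the 5 TPM filter and robust settings, 0 with both limma fits on TPM, the covariate, and without siNC-3 and siCLAP-2, 0 without siNC-1, siNC-3 or siCLAP-1, and 2 without siCLAP-3. The markers' median ranged from 0.0937 (without siNC-2) to 0.165 without single libraries and was 0.302 with the covariate, where the cause was not tested. With the replicate number as a block, 203 genes and 2 markers passed (Ednrb 0.45, Fabp7 0.37, adjusted p = 0.0347). The numbers share no stated source, and same-numbered libraries correlated at 0.13, 0.03 and −0.06 in their deviations, 3 of 6 libraries correlating best with their own number. Of 189 marker estimates under alternatives 3 changed sign, Slc1a3 at −0.12 and −0.00423 (without siNC-2 and without siCLAP-1; 0.143 at most without a single library) and Kcnj16 at −0.00436 (covariate). Of 517 for genes of the other lists 3 did, Gjb6 at 0.49, Gjb2 at 0.54 (covariate) and Cdh20 at −0.0270 (without siNC-2; 0.257 at most without a single library). Kcnj16 is below the 5 TPM filter, which leaves 9 markers there. Kcnj16 and Slc1a3 rest on the fewest counts of the markers.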
